A study of Mus musculus with 18 samples.

Results

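The young control retinas of this ATAC-seq series were compared by kind: retinas taken from the untouched eye of animals whose other eye had been put under pressure, against retinas of animals left untreated. The whole series holds 18 libraries of whole retina from wild-type mice, in 6 groups of 3, at 3 and 18 months of age (3mo and 18mo). The 3 libraries of the 3mo contralateral control group (replicates 1 to 3) came from animals in which the fellow eye had been raised to 30 mmHg (intraocular pressure, IOP) for 1 hour, with retinas collected on day 2, per the labels. The 3 libraries of the 3mo untreated group (replicates 4 to 6) came from animals of the same age that received no pressure in either eye. The labels share a treatment text that also names an injected kinase inhibitor, dasatinib, but none of them assigns a library to a drug group. The members are genomic regions, chosen from the peak lists alone. Peaks of the 6 lists were merged where they shared at least 1 bp, which gave 80770 merged regions. A region was contralateral-only when all 3 contralateral lists and none of the 3 untreated lists had a peak in it, and 386 regions (0.478%) met this rule. A region was untreated-only in the opposite case, which held for 940 regions (1.16%). These counts were fixed by the rule, so they describe the lists and carry no test. A region with no call in a library may have been open below the threshold of the peak caller, so a missing call is not a measured absence of open chromatin.

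ATAC-seq uses a transposase that cuts and tags DNA where nucleosomes leave it exposed, so a pile of fragments marks an active promoter, an enhancer or another stretch of open DNA. Rod photoreceptors are by far the most abundant cells of the mouse retina and dominate any measurement on whole retina. The homeodomain factors CRX and OTX2 bind the letters TAATCC in many photoreceptor and bipolar cell enhancers. An eye that was not itself treated can still respond to injury of its partner, which is why studies of eye pressure often carry an untreated control beside the contralateral one. In whole retina, fewer open cells of a type and less open DNA per cell cannot be told apart.

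The sequences below stand for the kinds of region that the results turn on, each 150 bp long, cut around the summits of its peaks, on the plus strand of GRCm38. The first shows a repeat of the kind that led the contralateral-only regions, at the promoter of the predicted gene Gm10717 in the satellite-like start of chromosome 9 (chr9:3024399-3024548). It holds no motif that was marked.
Gm10717: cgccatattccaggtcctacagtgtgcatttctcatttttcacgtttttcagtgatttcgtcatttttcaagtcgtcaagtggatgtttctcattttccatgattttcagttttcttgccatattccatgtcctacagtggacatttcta
The next pair shows contralateral-only promoters of single-copy genes, where capitals mark the GC box GGGCGG on either strand, the letters bound by SP and KLF factors. Ppp1r18 encodes an actin-linked regulatory subunit of protein phosphatase 1 (chr17:35866523-35866672), and Lgi3 encodes a secreted neuronal protein (chr14:70530759-70530908).
Ppp1r18: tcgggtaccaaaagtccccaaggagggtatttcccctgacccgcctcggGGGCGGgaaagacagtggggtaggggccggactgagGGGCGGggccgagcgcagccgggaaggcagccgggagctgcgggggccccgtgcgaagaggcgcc
Lgi3: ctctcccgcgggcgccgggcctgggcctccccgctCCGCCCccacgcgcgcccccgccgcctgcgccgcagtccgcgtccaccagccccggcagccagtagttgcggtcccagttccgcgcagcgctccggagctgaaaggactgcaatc
The untreated-only regions are shown by the region of the highest rank, near Epm2a, which encodes the glycogen phosphatase laforin (chr10:11492068-11492217), and by 3 regions that hold the CRX and OTX2 letters, in capitals on either strand. These 3 lay upstream of Ssbp3, a cofactor of LIM-homeodomain proteins (chr4:106908502-106908651), in an intron of Mpped2 (chr2:106697735-106697884) and in an intron of 4930447C04Rik (chr12:72897192-72897341).
Epm2a: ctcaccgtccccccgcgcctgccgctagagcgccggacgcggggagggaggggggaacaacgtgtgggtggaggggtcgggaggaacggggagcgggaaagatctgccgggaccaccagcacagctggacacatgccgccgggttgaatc
Ssbp3: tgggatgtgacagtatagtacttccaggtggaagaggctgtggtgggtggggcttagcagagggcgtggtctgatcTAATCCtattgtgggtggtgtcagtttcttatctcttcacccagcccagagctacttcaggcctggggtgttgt
Mpped2: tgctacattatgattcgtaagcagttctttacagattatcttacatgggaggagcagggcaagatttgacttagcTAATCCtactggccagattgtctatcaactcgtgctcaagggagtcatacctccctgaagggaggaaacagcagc
4930447C04Rik: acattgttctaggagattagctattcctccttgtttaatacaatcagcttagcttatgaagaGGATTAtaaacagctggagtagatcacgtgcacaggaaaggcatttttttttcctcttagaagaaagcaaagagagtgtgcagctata
The last shows an untreated-only region over a transfer RNA (tRNA) gene, n-TRacg4, at chr13:23500479-23500628, with the tRNA gene in capitals.
n-TRacg4: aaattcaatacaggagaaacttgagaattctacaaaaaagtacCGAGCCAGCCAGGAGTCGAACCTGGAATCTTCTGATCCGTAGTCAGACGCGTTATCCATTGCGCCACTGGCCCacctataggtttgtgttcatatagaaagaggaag

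The 2 groups differed in the shape of their peak lists, and every count of regions has to be read beside this. Peaks were wider in the contralateral lists, with median widths of 393, 271 and 386 bp in replicates 1 to 3. The untreated lists had median widths of 172, 182 and 161 bp, so the groups did not overlap, and the means differed by 178 bp (350 ± 68.5 against 172 ± 10.5 bp, SD, n = 3 each, two-sided exact permutation test, p = 0.1, adjusted p = 0.25). With 3 libraries against 3, 0.1 is the smallest p the design allows, so no difference between these groups could pass 0.05. The contralateral peaks also covered more DNA, 20.2, 26.2 and 21.2 Mb, than the untreated peaks, 13.8, 13.5 and 17.1 Mb (difference of the means 7.71 Mb lower in untreated, exact permutation p = 0.1, adjusted p = 0.25). The number of peaks overlapped between groups, at 39202, 66160 and 41499 contralateral and 50268, 46895 and 66114 untreated peaks (exact permutation p = 0.6, adjusted p = 0.75). Replicates 2 and 6 had the longest list of their group. The share of peaks at promoters (within 1 kb before and 100 bp after a start site) was 27.5 ± 5.00% in contralateral and 27.4 ± 2.82% in untreated lists (SD, n = 3 each, exact permutation p = 0.9, adjusted p = 0.9). The sign of that last difference turned in 5 of the other settings tried. The median GC content of peaks was 54.2 ± 0.289% against 53.7 ± 0.577% (SD, n = 3 each, exact permutation p = 0.6, adjusted p = 0.75).

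**Figure D1:**
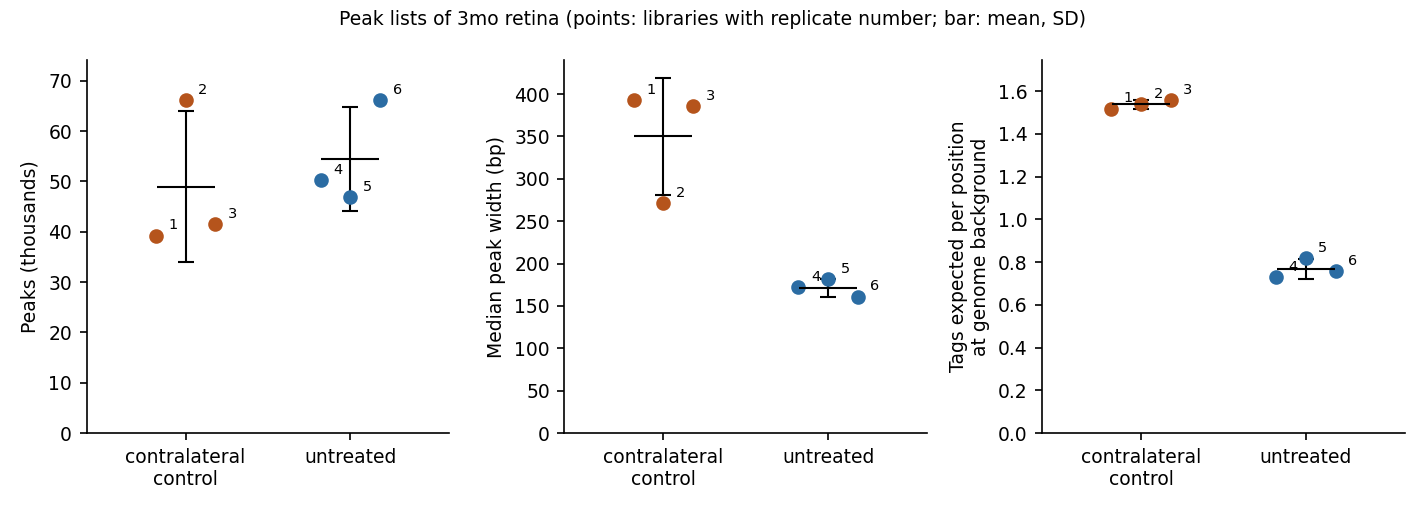
Number of peaks (in units of 1000), median peak width (bp) and genome background (tags expected per position) of each 3mo control library, with 1 numbered point per library and bars for the mean and SD of its group (n = 3). Width and background separate the groups, and the number of peaks does not.

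The background level that the peak caller assigned, read back from each list, was 1.52, 1.54 and 1.56 tags in the contralateral and 0.731, 0.82 and 0.756 tags in the untreated libraries. With the shortest peak of a list taken as its fragment length (152, 116 and 152 bp against 84, 88 and 79 bp), these levels gave estimated depths of 18.7, 24.8 and 19.2 M tags for contralateral and 16.3, 17.4 and 17.9 M tags for untreated libraries. These depths were computed from the lists and not from reads. The smallest pileup listed was 7 tags in contralateral and 5 tags in untreated libraries. The 3 untreated libraries of 18 months had backgrounds of 0.861 to 0.946 tags, and the other libraries of treated animals had 1.38 to 1.84. Narrow peaks and low background therefore ran with the untreated groups at both ages. No label names a batch, and the kind of control and this difference in the libraries cannot be told apart.

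By number of calls in each group, the largest class of merged regions was the one called in every list of both kinds of control. All 6 lists held 28816 of the merged regions (35.7%), and these common regions were the widest, with a median of 660 bp. In them the contralateral peaks covered a median of 537 to 551 bp and the untreated peaks 304 to 362 bp. Only 2.26 to 4.88% of the common regions carried 2 or more separate peaks in a contralateral library, against 14.5 to 20.8% in an untreated library. Regions called in 3 of 6 lists with both groups present numbered 5472 and served as a mixed set for comparison. This set leaned on the longest lists, as contralateral replicate 2 called 92.3% and untreated replicate 6 called 85.8% of it.

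**Figure D2:**
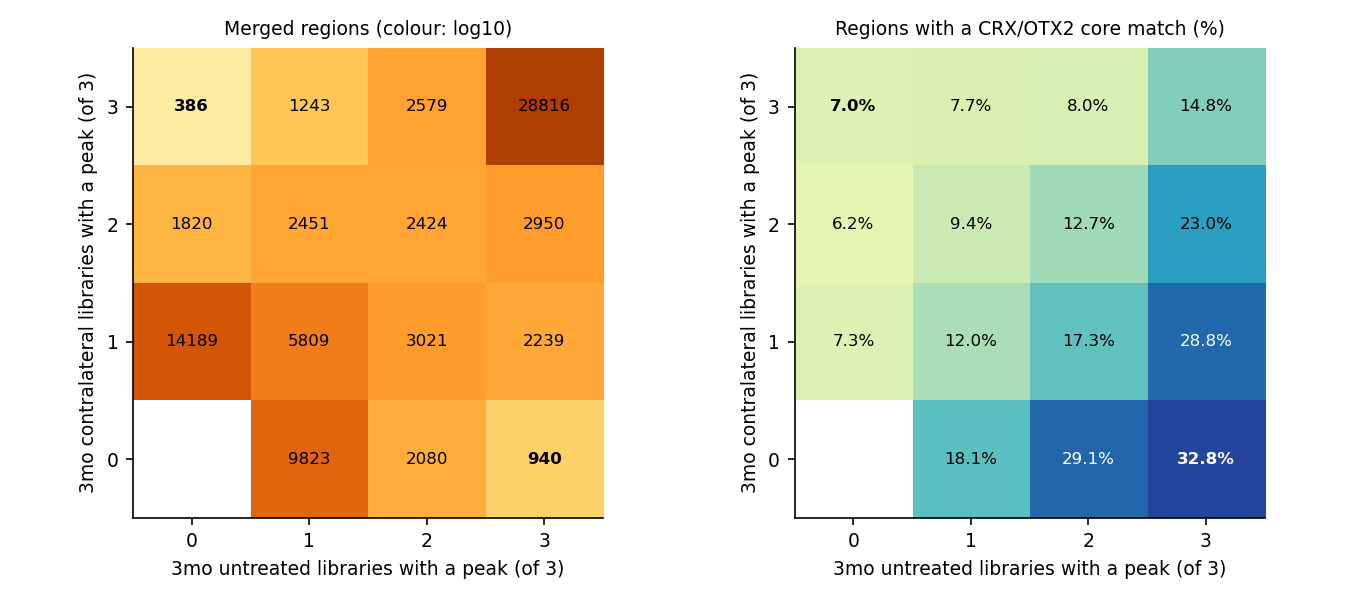
Merged regions by how many contralateral (vertical, 0 to 3) and untreated (horizontal, 0 to 3) lists called them, with their number on the left (colour on a log10 scale) and the share with the CRX and OTX2 letters (percent) on the right. The corner called in all 6 lists holds 28816 regions, the contralateral-only corner 386 and the untreated-only corner 940, and the largest cell outside the common corner, 14189 regions, was called in 1 contralateral list alone. The share with the letters is 32.8% in the untreated-only and 7.03% in the contralateral-only corner.

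The values just inside and just outside the rule showed how steeply the counts fell toward the corners. On the contralateral side, 14189 regions were called in 1 and 1820 in 2 contralateral lists with no untreated call, against 386 in 3. Allowing 1 untreated call beside 3 contralateral calls gave 1243 regions. On the untreated side, 9823 regions were called in 1 and 2080 in 2 untreated lists with no contralateral call, against 940 in 3. Allowing 1 contralateral call beside 3 untreated calls gave 2239 regions.

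Which of the 2 sets was larger depended on how a call was made. When every list was cut to its strongest peaks, the same number in each, 1132 regions were contralateral-only and 916 untreated-only. When a call needed peaks over at least 50% of a region, 7012 regions were contralateral-only and 868 untreated-only. When each peak was replaced by the 200 bp around its summit, the counts were 421 and 2237. Both sets ranked far below the common regions, but so did the mixed set. Percentiles of a region's −log10 q-value were taken within each list and averaged over the lists that called it. Their median was 24.0 for contralateral-only and 35.2 for untreated-only regions. It was 69.1 for common, 25.2 for mixed and 32.6 for all merged regions. Median pileups in contralateral-only regions were 12.5, 17 and 13 tags in replicates 1 to 3. There the common regions had 35, 51 and 36 tags and the mixed regions 12, 15 and 12. Median pileups in untreated-only regions were 13, 13 and 15 tags in replicates 4 to 6. There the common regions had 33, 32 and 39 tags and the mixed regions 9, 9 and 10.

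The 2 sets differed in size, base composition and place. Contralateral-only regions had a median width of 369 bp and a GC content of 53.5% around the summit. Untreated-only regions had a median width of 148 bp and a GC content of 46.5%, below the mixed set (51%) and the common regions (56.5%). None of the contralateral-only regions and 55.6% of the untreated-only regions were narrower than 152 bp, which was the shortest peak in replicates 1 and 3, so these widths follow the lists. Regions without a CpG in the 200 bp made up 8.81% of contralateral-only and 17.8% of untreated-only regions, against 8.75% of all merged regions. Promoters held 50 contralateral-only regions (13.0%) and 63 untreated-only regions (6.70%), against 18.4% of all merged and 38.6% of common regions. The order of the 2 sets turned with 200 bp summit windows, at 19.2% of contralateral-only and 26.3% of untreated-only regions. It held with each library left out, at 11.3 to 14.4% and 5.84 to 7.51%. The lower promoter share of untreated-only regions thus depended on the setting, and the cause was not tested. Introns held 46.6% and 56.8%, and intergenic DNA 30.1% and 32.0%. The median distance to the nearest start of a protein-coding gene was 22453 bp for contralateral-only and 20284 bp for untreated-only regions. It was 6215 bp for common, 26692 bp for mixed and 18580 bp for all merged regions. Some members lay beside a peak of the other group: 15.5% of contralateral-only and 9.47% of untreated-only regions had one within 500 bp.

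**Figure D3:**
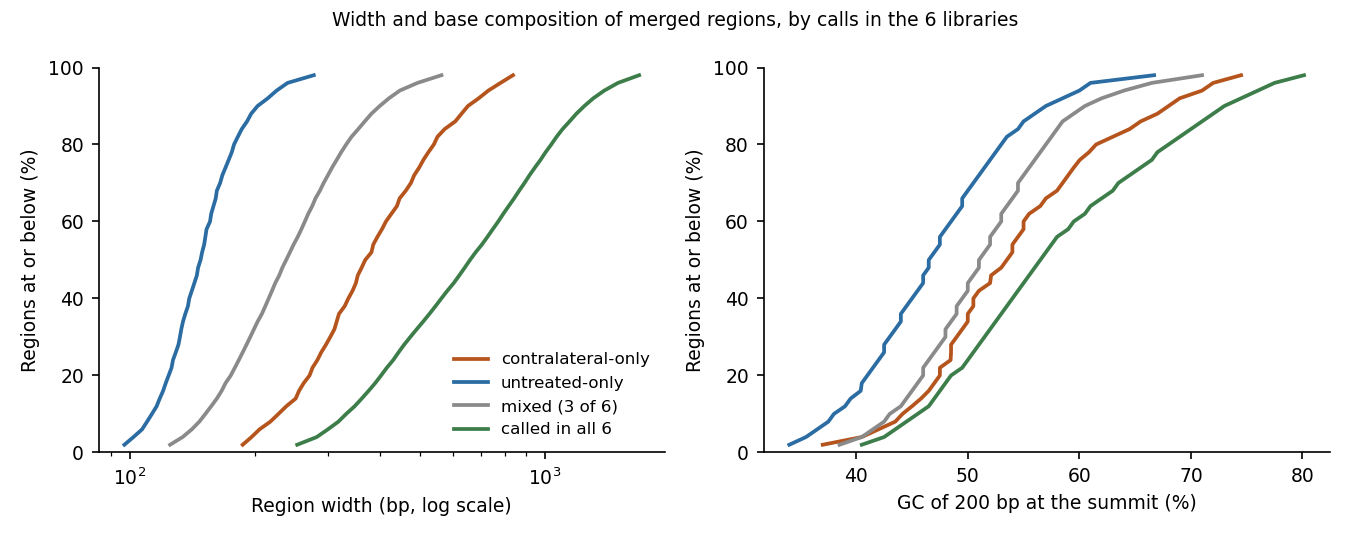
Cumulative distributions (percent of regions at or below a value) of region width (bp, log axis) and of GC content (percent, 200 bp at the summit) for contralateral-only, untreated-only, mixed and common regions. Untreated-only regions lie lowest on both axes (medians 148 bp and 46.5%), and common regions highest (660 bp and 56.5%).

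The contralateral-only regions of the highest rank were repeats. Of the 8 highest, 5 were telomere-type repeats (at least 4 TTAGGG in a row, on either strand) and 3 lay in the satellite-like start of chromosome 9. The telomere-type region near Adgre5, an adhesion receptor gene (chr8:83756747-83757031, intergenic), had pileups of 75, 83 and 69 tags in replicates 1 to 3. The fold, the ratio of pileup to local background after a tag is added to each, was 18.8, 22.9 and 16.4. This region had a mean percentile of 92.4 ± 2.99 (SD, n = 3). It was called in 3 of 3 3mo IOP and 3 of 3 18mo contralateral libraries, and also in 2 of 3 18mo untreated libraries. A telomere-type region in an intron of Flt1, the vascular endothelial growth factor receptor gene (chr5:147611391-147611632), had 39, 43 and 39 tags and was likewise called in 2 of 3 18mo untreated libraries. The satellite region at the Gm10717 promoter (chr9:3024375-3024583), printed above, had 93, 113 and 116 tags and was called in 9 of 9 other libraries of treated animals and in 0 of 3 18mo untreated libraries. The copies Gm10717, Gm10718, Gm10722 and Gm11168 are nearly identical, so which of them a fragment came from is uncertain. Another part of the same array, 9:3027117, was untreated-only, with 40, 25 and 31 tags. Telomere-type repeats occurred in both sets, with 9 contralateral-only (2.33%) and 11 untreated-only regions (1.17%) of 55 in all, and 0.0681% of all merged regions were of this type. Outside repeats (no telomere run, not in the satellite-like start of chromosome 9, at most 50% of the 200 bp soft-masked) lay 88.1% of contralateral-only and 83.6% of untreated-only regions, against 97.4% of common regions.

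Outside repeats the contralateral-only regions were weaker, and the ones named in this paragraph were chosen after their values were seen, except Fcgr1, Ppp1r18, Lgi3 and Fgfr3, which the rule on names took. The highest lay in an intron of Fcgr1, the high-affinity IgG receptor gene of macrophages and microglia (chr3:96287387-96287705), with 25, 25 and 19 tags and folds of 10.3, 9.74 and 7.82. It was called in 9 of 9 other libraries of treated animals and in 0 of 3 18mo untreated libraries. The promoter of Ppp1r18 (chr17:35866249-35866858) had 36, 45 and 31 tags and that of Lgi3 (chr14:70530595-70531134) had 15, 25 and 17 tags. Both were called in all 9 other libraries of treated animals and in 1 of 3 18mo untreated libraries. An untreated peak lay 173 bp from the Ppp1r18 region. The promoter of Fgfr3, a fibroblast growth factor receptor gene (chr5:33721610-33722429), had 20, 27 and 23 tags. It did not keep apart from the untreated group at 18 months, where 3 of 3 contralateral and 2 of 3 untreated libraries called it. The promoter of Vegfa, the vascular growth factor gene (chr17:46031851-46032072), had 38, 45 and 43 tags, with folds of only 2.76, 2.84 and 2.82 over a high local background. An untreated peak lay 233 bp away, and merging over all 18 lists joined it to a region called equally in both groups. Exon regions of Fev, Ski and Fras1, at 27, 46 and 19 tags in replicate 1, were called in all 3 18mo untreated libraries. The promoter of Bmpr1b, a bone morphogenetic protein receptor gene, had 11, 16 and 15 tags and was called in no 18mo control library. These promoters had mean percentiles of 33.0 to 44.9, against medians of 24.0 for contralateral-only and 69.1 for common regions. Several were called in untreated retinas of the older age.

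The 8 highest untreated-only regions had mean percentiles of 78.7 to 98.4, against 65.0 to 92.4 for the 8 highest contralateral-only regions. In tags, their pileups were lower than those at the Adgre5 and Gm10717 repeats. The background was also lower in untreated lists (0.731 to 0.82 against 1.52 to 1.56 tags), so tags do not rank regions across the groups. One of the 8 highest, in an intron of AI481877, was 71% soft-masked. None of the 8 highest was a telomere or satellite repeat, and 7 of them were called in 3 of 3 18mo untreated libraries and in 0 of the 9 other libraries of treated animals. The highest was the intergenic region near Epm2a (chr10:11492038-11492230), 148739 bp from the nearest coding start. Its pileups were 53, 64 and 65 tags in replicates 4 to 6, with folds of 31.2, 35.7 and 37 and a mean percentile of 98.4 ± 2.13 (SD, n = 3). A region in an intron of the predicted gene Gm36264 (chr13:9011725-9011869) had 34, 35 and 40 tags. A region near Ifngr2, an interferon gamma receptor gene (chr16:91534598-91534737), had 34, 31 and 38 tags. A region in the interval upstream of Ezh2, the histone H3K27 methyltransferase gene (chr6:47672328-47672477), had 48, 42 and 58 tags, and a weaker one of the same pattern lay nearby at 6:47655024 with 47, 39 and 52 tags. Contralateral peaks lay only 78 and 106 bp from this Ezh2 pair. Both regions of the pair had 59.5% GC and were 47% soft-masked, and whether they are copies of a repeat was not tested. Gm12896 and Gm9855, both annotated as processed pseudogenes, carried regions at their promoters. That of Gm9855 was the exception among the 8. It was called in 2 of 3 libraries in each of the 3mo IOP, 18mo contralateral and 18mo IOP groups. Most of these regions were narrow: the widest peak at Epm2a, Gm36264 and Ifngr2 was 193, 144 and 139 bp.

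Promoters held 6.70% of the untreated-only regions as merged here and 26.3% with 200 bp summit windows. The promoter regions named by the rule had mean percentiles of 45.6 to 57.5, against medians of 35.2 for untreated-only and 69.1 for common regions. The promoter region of Pacs1, a trafficking adaptor gene (chr19:5274024-5274187), had 27, 27 and 43 tags. It was called in 3 of 3 untreated and in 2 of 3 contralateral libraries at 18 months, and a contralateral peak of 3 months lay 228 bp away. The region 837 bp upstream of the start of Lrp2, which encodes the endocytic receptor megalin (chr2:69586841-69586986), had 18, 20 and 30 tags and was called in 2 of 3 18mo untreated libraries alone. The promoter of Csrnp3, a neuronal nuclear protein gene (chr2:65930066-65930218), had 13, 11 and 17 tags and was called equally in both 18mo control groups. Commd1 completed the promoters of the rule on names, at 26, 22 and 31 tags.

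A set of 14 untreated-only regions lay over tRNA genes, which RNA polymerase III transcribes from promoters inside the gene. This class was looked at after the member lists had been seen. Of the 198 merged regions over the 430 annotated tRNA genes, 128 were called in all 6 lists, 14 were untreated-only (7.07%) and 0 were contralateral-only. The tRNA regions made up 1.49% of untreated-only and 0.245% of all merged regions. Of the 14, 10 lay on chromosome 13, which held 63 (31.8%) of the 198. The region over n-TRacg4 (chr13:23500491-23500633), printed above, had 25, 22 and 30 tags, and that over n-TSgct8 (chr13:21994161-21994316) had 18, 18 and 26 tags. Both were called in 3 of 3 18mo untreated libraries and in 0 of the 9 other libraries of treated animals. Untreated lists held 166, 165 and 193 of the tRNA regions and contralateral lists 147, 155 and 135. Genes for tRNA occur in near-identical copies, so reads could be assigned to the wrong copy.

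The letters of the CRX and OTX2 motif set the 2 kinds of region apart. The motif TAATCC, searched on both strands in the 200 bp at the summit, was found in 305 of 931 untreated-only regions (32.8%) and in 27 of 384 contralateral-only regions (7.03%). Mixed regions held it in 13.8%, common regions in 14.8% and all merged regions in 14.3%. The same 6 letters read backward, CCTAAT, which have the same composition, were found in 12.1% of untreated-only, 6.25% of contralateral-only and 7.65% of all merged regions. The contrast in the motif was thus larger than that of its reversed letters, and contralateral-only regions held the motif about as often as the reversed letters. Leaving out each library in turn gave 29.1 to 33.6% for untreated-only and 5.47 to 7.65% for contralateral-only regions, so the ranges did not overlap. With 200 bp summit windows the shares were 21.2% and 6.46%, and with at least 50% cover they were 33.0% and 12.5%, so the gap narrowed in both settings and kept its direction. Among regions that held the motif, the nearest match lay within 25 bp of the summit in 57.0% of untreated-only, 51.8% of common and 22.2% of contralateral-only regions, and 61 of the 305 untreated-only regions held more than 1 match.

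The difference in the motif between the 2 sets was present at matched width and at matched GC, while that between untreated-only and common regions was absent at low GC. Among regions 152 to 300 bp wide, 37.7% of untreated-only, 12.7% of contralateral-only, 15.6% of mixed and 21.9% of common regions held the motif. At a GC content of 45 to 55%, the shares were 35.8%, 10.2%, 15.5% and 23.9%. Below 45% GC they were 36.5%, 9.09% (4 of 44 regions) and 22.2%, and common regions, at 36.2%, held the motif as often as untreated-only regions. Outside repeats the shares were 32.2% of untreated-only and 5.59% of contralateral-only regions. Share and number of calls moved together: with no contralateral call, 18.1%, 29.1% and 32.8% of the regions called in 1, 2 and 3 untreated lists held the motif. With no untreated call, the regions called in 1, 2 and 3 contralateral lists held it in 7.25%, 6.16% and 7.03%. Among all peaks of a library the gap was small, at 13.1%, 12.6% and 13.2% in contralateral and 16.2%, 15.6% and 15.6% in untreated lists.

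**Figure D4:**
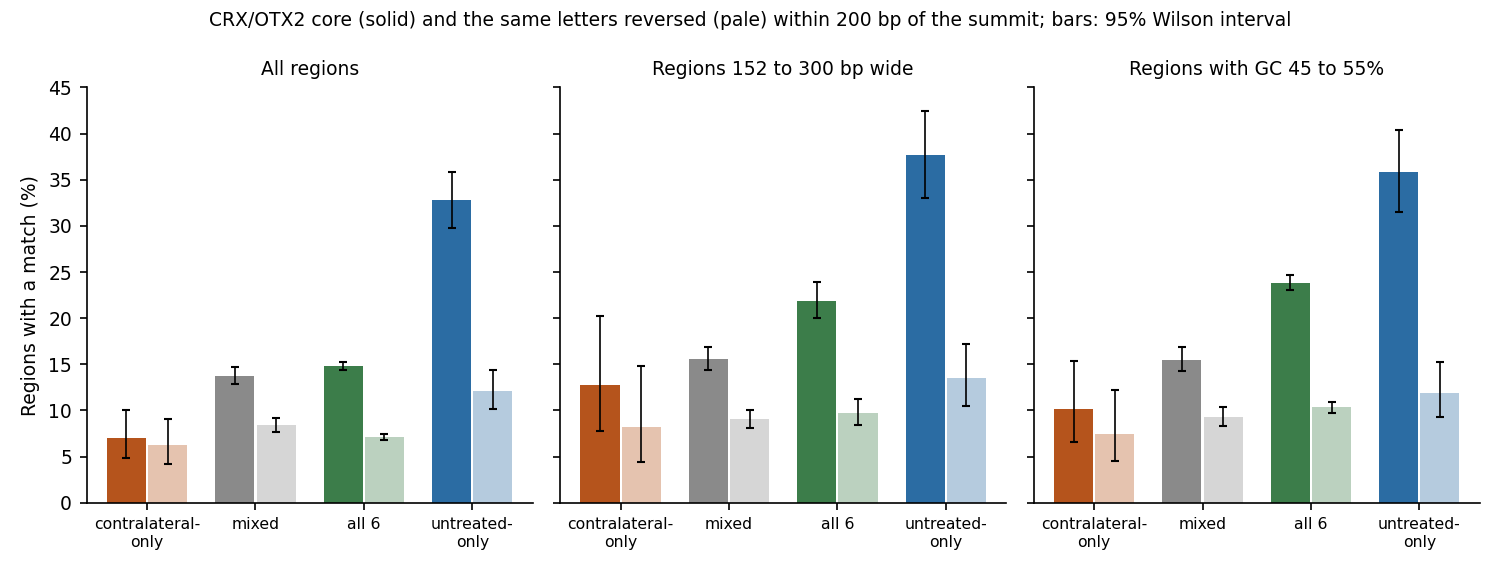
Share of regions (percent) with TAATCC (solid bars) and with the reversed letters CCTAAT (pale bars) on either strand in the 200 bp at the summit, for all regions, for regions 152 to 300 bp wide and for regions of 45 to 55% GC, with 95% Wilson intervals, which cover counting error only. Untreated-only regions stand highest in each panel, at 32.8%, 37.7% and 35.8%, and contralateral-only regions lowest, at 7.03%, 12.7% and 10.2%.

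The regions behind these shares lay mostly in introns and between genes, and those named here were chosen by their motif match after the values were seen. The region upstream of Ssbp3 (chr4:106908504-106908634), 2893 bp before the start, had 41, 45 and 45 tags in replicates 4 to 6, and the intron region of Mpped2 (chr2:106697756-106697888) had 51, 34 and 46 tags. The intron region of Cpeb3, a translation regulator gene (chr19:37178008-37178134), had 28, 31 and 29 tags. At Ssbp3 and Mpped2 the 18mo libraries repeated the pattern, with 3 of 3 untreated calls and no call in any other library of treated animals. At Cpeb3 the calls were the same but for 1 18mo IOP library. The intron region of 4930447C04Rik (chr12:72897088-72897349) had 13, 13 and 19 tags and was also called in 2 of 3 3mo IOP libraries. The folds were 4.37, 4.38 and 4.51 at Ssbp3 and 8.09, 7.21 and 10.7 at 4930447C04Rik.

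Of the 16 motifs searched, others differed less. The homeodomain letters TAATTA were in 11.0% of untreated-only and 2.60% of contralateral-only regions, but the reversed letters ATTAAT were in 9.56% and 1.82%, so this contrast was shared by letters of the same composition. The nuclear receptor letters AGGTCA were in 20.1% and 13.0% (reversed letters ACTGGA 13.1% and 16.1%). The MEF2 motif was in 5.80% and 2.08%, against 3.39% of all merged regions, and its reversed letters were in 2.90% and 1.30%. Higher in contralateral-only regions were the AP-1 letters TGANTCA, in 7.55% against 3.97% of untreated-only regions, and the glucocorticoid receptor letters ACANNNTGT, in 8.07% against 4.19%. The first of these was near the level of the mixed set, 8.23%, and of all merged regions, 6.55%. For the second, the mixed set had 6.18% and all merged regions 5.41%. The CTCF core AGGGGGC was in 8.85% of contralateral-only and 2.79% of untreated-only regions, where common regions had 11.4% and all merged regions 8.04%. The GC box GGGCGG was in 13.3% and 7.84%, both below all merged regions (17.8%). All motifs were searched on both strands and their matches may overlap. A match describes the letters in the window and does not show that a factor was bound.

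The 12 libraries that the rule did not use gave a view of the same regions in other retinas. Contralateral-only regions were called in 72.8, 63.2 and 65.0% in the 3mo IOP libraries and in 78.8, 68.4 and 73.3% in the 18mo contralateral libraries. The 18mo untreated libraries called 28, 20.2 and 26.2% of them, and the 18mo IOP libraries 55.4, 62.7 and 29.8%. Untreated-only regions were called in 80.7, 76.5 and 81.6% in the 18mo untreated libraries. The 18mo contralateral libraries called 39.4, 40.7 and 43.8% of these, the 3mo IOP libraries 15.0, 13.4 and 10.9%, and the 18mo IOP libraries 18.9, 27.3 and 9.68%. For mixed regions the shares were 43.8, 39.0 and 45.1% in 18mo untreated and 69.7, 55.6 and 64.4% in 18mo contralateral libraries. The 18mo IOP libraries called 43.2, 47.4 and 18.0% of the mixed regions, so in each of the 3 sets the 18mo contralateral libraries had higher shares than the 18mo IOP libraries. Of all merged regions, the 18mo contralateral libraries called 59.8 to 66.2%, the 18mo IOP libraries 42.6 to 56.6%, the 3mo IOP libraries 52.5 to 57.1% and the 18mo untreated libraries 53.3 to 56.0%.

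**Figure D5:**
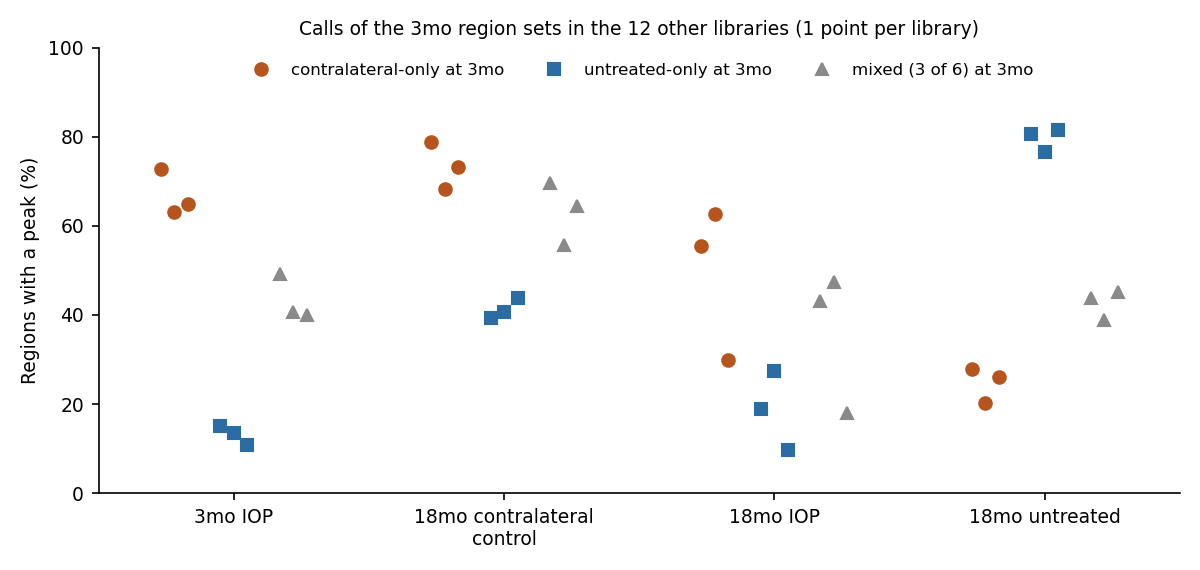
Share of contralateral-only, untreated-only and mixed regions (percent) called in each of the 12 libraries that did not choose them, by group. The 18mo untreated libraries call 76.5 to 81.6% of the untreated-only and 20.2 to 28% of the contralateral-only regions.

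The full pattern was repeated at 18 months in a minority of regions. Of the 386 contralateral-only regions, 77 (19.9%) were called in 3 of 3 contralateral and 0 of 3 untreated libraries at 18 months, against 2.88% of all merged and 8.52% of mixed regions. Of the 940 untreated-only regions, 178 (18.9%) showed the matching pattern, against 0.941% of all merged and 1.43% of mixed regions. Both shares fell when 1 library was left out, to 13.1% for contralateral-only regions without contralateral replicate 1 and to 7.34% for untreated-only regions without contralateral replicate 2. The opposite pattern appeared in 1 contralateral-only (0.259%) and 6 untreated-only regions (0.638%). Among all merged regions these patterns had shares of 0.941% and 2.88%. Read from the other side, the 77 repeated regions were 3.31% of the 2328 merged regions contralateral-only at 18 months. The 178 were 23.4% of the 760 merged regions untreated-only at 18 months. Regions without a peak in any of the 3mo control lists were not among the merged regions and are not counted here. A set of 134 untreated-only regions was called in all 3 18mo untreated libraries and in none of the 9 other libraries of treated animals. They made up 14.3% of untreated-only regions, against 0.633% of all merged regions. The reverse pattern held for 18 contralateral-only regions (4.66%), against 0.275% of all merged regions. The narrow peaks and low background of the untreated group were present at both ages, so the repeat at 18 months holds the same difference between the libraries. The motif shares were also repeated in regions that were not members at 3 months: 32.4% of 568 regions untreated-only at 18 months and 4.81% of 2243 contralateral-only at 18 months held TAATCC, with 14.1% and 5.48% for the reversed letters. The contrast of the number of peaks, untreated minus contralateral, was 5472 at 3 months and −3730 at 18 months, and the difference between ages, −9202 peaks, did not pass (permutation of labels within age, p = 0.385).

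The labelled tissue was checked by its marker genes. All 10 rod markers had a peak at a promoter in all 6 libraries, while 7 of 10 lens and ciliary body and 9 of 10 blood cell markers had none in any library. Of the pigment epithelium markers, 3 of 10 had one in all 6 libraries and 5 had none. Of the microglia markers, 7 of 10 had none either, and the C1qc promoter held a peak in 3 contralateral and 0 untreated libraries, although the 1 merged region near this gene was in neither set. The Tmem119 promoter held one in 0 contralateral and 1 untreated library. Of the cone promoters, 4 were called in more contralateral and 0 in more untreated libraries. For amacrine and horizontal cell promoters these counts were 3 and 3. Rod genes carried 2 untreated-only regions among 94 regions nearby. One lay in an intron of Sag, the rod arrestin gene (chr1:87805853-87805998), with 50, 44 and 57 tags. Its folds over a high local background were 3.18, 2.48 and 2.76, and only 1 18mo untreated library called it. The other was 8856 bp upstream of Gnat1, the rod transducin gene, in an intron of Sema3f (chr9:107688493-107688649), with 17, 17 and 22 tags, and was called in 3 of 3 18mo untreated and 1 of 3 18mo contralateral libraries. Near Grik1, a glutamate receptor gene of bipolar cells, a promoter region (chr16:88289496-88289806) was contralateral-only with 9, 15 and 10 tags, and 1 of 3 18mo contralateral libraries called it. An exon region of Dkk3, a Müller glia gene (chr7:112158114-112158540), was contralateral-only with 16, 26 and 18 tags. Regions were assigned to the nearest coding start within 100 kb. By this limit no region near the amacrine, ganglion cell, astrocyte, microglia, vascular, pigment epithelium, lens or blood markers was in either set. The contralateral-only region in an intron of Flt1, a vascular marker, lay 114463 bp from its start and was not counted.

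Response genes were rarely among the members. Of all regions within 100 kb of a protein-coding start, 0.463% were contralateral-only and 1.14% untreated-only. Immediate early genes, the fast response to stimulation, had 1 contralateral-only and 0 untreated-only of 133 regions nearby, and that one lay 68218 bp from Ier2 in an intron of Cacna1a. Gliosis and injury genes had 1 and 2 of 122 regions. These were a contralateral-only region 54954 bp from Edn2, the endothelin 2 gene, with 10, 25 and 9 tags, and untreated-only regions at Lifr and Osmr, receptor genes for leukemia inhibitory factor and oncostatin M. The Lifr intron region (chr15:7169513-7169686), with 16, 17 and 23 tags, was called in all 3 libraries of both 18mo control groups. The Osmr region (chr15:6904369-6904525) had 12, 11 and 15 tags and was called in 2 of 3 contralateral and 3 of 3 untreated libraries at 18 months. Interferon and antigen presentation genes had none of 46 regions in either set, glucocorticoid response genes none of 112, and heat shock and folding genes none of 48. Circadian clock genes had 0 contralateral-only and 2 untreated-only of 171 regions. These lay in introns of Rora, a nuclear receptor of the clock (chr9:69309115-69309286; 26, 24 and 20 tags), and of Arntl, which encodes the clock factor BMAL1 (chr7:113249312-113249491; 29, 18 and 24 tags), and both were called in all 3 libraries of both 18mo control groups. The photoreceptor transcription factors had 0 and 1 of 223, the latter 41256 bp from Thrb with 8, 7 and 7 tags. With counts this small, each list was close to the background shares.

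The members were spread over many genes. Contralateral-only regions had 313 and untreated-only regions 748 nearest genes within 100 kb, of which 26 were shared (8.31% and 3.48% of each list). Tiam1, a Rac activator gene, was alone in having 3 contralateral-only regions, among 26 merged regions nearby. Arhgap10, Dpysl3, Enthd1, Epb41l2 and Phactr1 each had 3 untreated-only regions, among 18, 19, 9, 36 and 39 merged regions.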

How the data were processed

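ATAC-seq peak lists of 6 libraries of mouse retina were analyzed, with 12 other libraries of the series as a view outside the rule. Each library had its own peak list, made by the authors with MACS2 at a q-value of at most 0.05. STAR 2.7.8a, bedtools 2.29.2, HOMER and edgeR are also named in the submitters' processing notes, on mm10. The deposited lists hold a score, a fold, the −log10 p-value and the −log10 q-value of each peak. The fold is the ratio of the pileup to the local background after a tag is added to each. The added tag lowers the fold more where the background is low, as in the untreated lists. Read trimming, duplicate removal and any shift for the transposase are not given in the sources used here. The preparation text shared by the labels also describes crosslinking and immunoprecipitation, whereas the paper describes tagging of fresh nuclei with transposase. The study's own count test needs reads per region, which the lists do not hold, so calls were compared.

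Peaks were merged at 1 bp overlap (pandas 2.3.3, numpy 2.4.6). Pileups were solved from the deposited fold and p-value (relative tolerance 0.0001). Depth was taken as background times 1.87 Gb over the shortest peak. Sequences and soft-masking came from the RefSeq GRCm38 genome (pysam 0.24.0, samtools 1.23.1), genes from GENCODE M21 and tRNA genes from RefSeq. For library measures, group means were tested by two-sided exact permutation (scipy 1.17.1) with Benjamini-Hochberg adjustment over 5 measures. Nothing states that the retinas came from separate animals, so p-values measure the spread between samples only. Groups of 3 allowed no search for outlying samples.

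Regions were ranked by the mean percentile of −log10 q within a list. The rule named in each set the 8 highest, the 5 highest at promoters of coding genes, the 5 highest repeated at 18 months and up to 3 per gene list. The members, gene lists and motifs were chosen with earlier results of these data known. Alternatives were an equal number of peaks, stricter q-values, 50% cover, 200 bp summit windows, merging over 18 lists, a wider promoter and leaving out each library. Regions outside repeats and tRNA genes were an alternative added after seeing the data, as were the motif shares under each alternative. Merging and tests were tested on simulated lists. A few results are not reported here.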

Additional observations from a re-analysis of the deposited data

How the results depend on the processing

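With an equal number of peaks, 1132 regions were contralateral-only (386 as reported), their promoter share was 17.8% (13.0%) and their TAATCC share 4.69% (7.03%), and the share of peaks at promoters was 1.73 percentage points higher in untreated lists, opposite to the reported −0.0527. With at least 50% cover, 7012 regions were contralateral-only, 30.1% of them repeated at 18 months and 12.5% with TAATCC. With −log10 q of at least 5, 27.9% of contralateral-only regions were repeated and 35.9% of untreated-only regions held TAATCC. With 200 bp summit windows, 19.2% of contralateral-only regions were at promoters, and 2237 regions were untreated-only, of which 25.3% were repeated, 26.3% at promoters and 21.2% with TAATCC. With promoters within 2.5 kb, the promoter shares were 30.1% and 22.7%, and that of peaks 1.18 points higher in untreated lists. Restricting to regions outside repeats and tRNA genes, chosen after seeing the data, left 340 and 772 regions.

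Leaving out each library gave 487 to 1466 contralateral-only and 1060 to 2971 untreated-only regions, since fewer lists had to meet the rule. Contralateral-only regions numbered 1466, 1118 and 1401 without contralateral replicates 1 and 3 and untreated replicate 6, and untreated-only regions 2971, 1625 and 2159 without contralateral replicate 2 and untreated replicates 4 and 5. Repeated shares were 13.1 to 20.1% and 7.34 to 17.2%, promoter shares 11.3 to 14.4% and 5.84 to 7.51%, and TAATCC shares 5.47 to 7.65% and 29.1 to 33.6%. The difference in number of peaks ran from −372 (without untreated replicate 6, a reversal) to 14075, that in covered length from −8.87 to −5.89 Mb, in width from −218 to −157 bp, in GC from −0.667 to −0.167 points, in promoter share of peaks from −2.91 to 1.71 points (1.71, 1.04 and 1.55 without contralateral replicates 1 and 3 and untreated replicate 6), and in the contrast between ages from −17806 to −3358 peaks. Except for the effect of fewer lists, the cause of these shifts was not tested. Of the 62 named regions none turned its direction in any setting, and 21 values moved against 721 that did not. These regions were named because every list of 1 group and none of the other called them. Leaving out a library could therefore not move them. Stricter q-values, fewer peaks or more cover could not turn them, so these counts are no test of the regions. No paired analysis was possible because the groups share no replicate number. Depth per library is an estimate from the lists, and a region under 5 to 7 tags could not be called.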
